A study of Mus musculus with 6 samples.

Results

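The transcription factor genes Egr1, Egr2, Egr3, Nr4a1, Nr4a2, Nr4a3, Fos, Jun, Junb and Jund are 10 of the 55450 genes in the count table, and were taken by gene symbol. They were read in RNA-seq libraries of naive CD8 T cells sorted from mouse lymph nodes as negative for the surface proteins Ly6C and CXCR3, both markers of memory-like CD8 cells. The groups were 3 CD103KO libraries, from Itgae-/- mice, and 3 WT libraries, from C57BL/6 mice. Itgae encodes CD103, the integrin alpha E chain that binds E-cadherin, and the comparison asks what changes in resting CD8 T cells that lack it. The sources used here do not give age, sex, the design of the Itgae allele or any pooling of mice. Nor do they say that each library came from its own mouse, so the p-values reflect only how much these libraries varied, which may be technical.

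Early genes of this kind are transcribed within minutes of a signal, without new protein synthesis, because factors already bound at their promoters are activated by kinases. In T cells the antigen receptor acts through the ERK kinases and the factors ELK and SRF on the EGR genes and Fos, and through calcium, NFAT, MEF2 and CREB on the NR4A genes. Contact with self peptide on MHC keeps a low level of this signal in naive T cells, and Nr4a1 and the EGR genes are used to read it. Fos and Jun are also induced by stress, warming and tissue dissociation, so in sorted cells they are read as a sign of handling too.

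The libraries held 68292475 to 76044311 expected counts in CD103KO and 74438908 to 94347034 in WT, so 1 count equals 0.0106 to 0.0146 CPM (read counts scaled to library size). Itgae was at 65.6 ± 3.90 CPM in CD103KO and 482 ± 19.3 CPM in WT (SD, n = 3 each). The markers of CD8 T cells were all detected, 13 of 13, and summed to 11050 to 11390 CPM in CD103KO and 11190 to 11390 CPM in WT, while Cd4 averaged 0.181 and 0.348 CPM. The libraries were not alike in Xist, the RNA that coats the inactive X chromosome: WT replicates 1 and 2 had 66.9 and 79.7 CPM, and the other 4 libraries had at most 2 counts. Ddx3y, a gene of the Y chromosome, had 0 counts in those WT replicates and was at 47.8 to 56.2 CPM in the other 4 libraries. The CD103KO libraries and WT replicate 3 thus carry the male pattern and WT replicates 1 and 2 the female one, so genotype and sex are partly confounded. A fit with a term for Xist reads therefore rests its comparison on WT replicate 3 as the lone WT library, and its values are given below where it turns a direction.

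All 10 members passed the filter on low counts, and all 60 of their values were whole numbers, to within 0.001 of a count. The promoters of Fos and Jun, which had the same order of libraries, and of Nr4a1 and Nr4a3, the pair of members with the most similar profiles, are shown here with that of Egr2, as the 250 bases before the start site in RefSeq (GRCm38.p6), where 8 of the 10 members matched. The windows are chr12:85473640-85473889 (plus strand) for Fos, chr4:95052223-95052472 (minus strand) for Jun, chr10:67537619-67537868 (plus strand) for Egr2, chr15:101266596-101266845 (plus strand) for Nr4a1 and chr4:48045055-48045304 (plus strand) for Nr4a3. Egr2 has 5 such windows, and the one shown is the first of 3 that overlap. Capitals mark every match, on either strand, to TGACG, the core of the cAMP response element TGACGTCA bound by CREB and ATF factors, to TGACATCA, the JUN1 element bound by JUN and ATF2, to GCGNGGGCG, bound by EGR factors, and to the CArG box bound by SRF.
Fos: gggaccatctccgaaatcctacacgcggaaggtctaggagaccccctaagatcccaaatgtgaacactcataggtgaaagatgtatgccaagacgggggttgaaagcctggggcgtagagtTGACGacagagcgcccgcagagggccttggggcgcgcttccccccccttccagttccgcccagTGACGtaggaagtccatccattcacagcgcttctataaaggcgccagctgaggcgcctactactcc
Jun: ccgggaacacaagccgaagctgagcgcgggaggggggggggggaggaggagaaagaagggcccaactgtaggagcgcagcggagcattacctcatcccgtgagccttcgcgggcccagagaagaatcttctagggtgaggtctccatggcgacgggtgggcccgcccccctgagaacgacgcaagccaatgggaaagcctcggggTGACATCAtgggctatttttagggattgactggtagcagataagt
Egr2: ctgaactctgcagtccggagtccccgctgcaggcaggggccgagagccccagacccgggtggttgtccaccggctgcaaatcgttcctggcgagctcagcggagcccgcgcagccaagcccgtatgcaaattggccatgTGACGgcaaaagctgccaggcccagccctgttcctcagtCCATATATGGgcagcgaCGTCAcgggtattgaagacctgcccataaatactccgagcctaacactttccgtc
Nr4a1: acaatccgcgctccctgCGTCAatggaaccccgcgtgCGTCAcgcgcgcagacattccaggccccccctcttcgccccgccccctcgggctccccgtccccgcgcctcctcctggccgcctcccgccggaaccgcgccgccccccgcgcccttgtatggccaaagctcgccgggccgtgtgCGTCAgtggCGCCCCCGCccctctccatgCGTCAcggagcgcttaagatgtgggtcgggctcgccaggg
Nr4a3: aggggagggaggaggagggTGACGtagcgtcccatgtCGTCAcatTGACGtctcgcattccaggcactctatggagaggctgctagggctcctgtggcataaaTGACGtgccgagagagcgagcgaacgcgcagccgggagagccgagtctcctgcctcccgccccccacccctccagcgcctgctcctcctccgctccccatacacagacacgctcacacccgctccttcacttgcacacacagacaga
The TGACG core occurred 4 times each in the windows of Nr4a1, Nr4a2 and Nr4a3, 2 times each in that of Fos and in the Egr2 window shown, and 1 time in that of Junb; of the 5 Egr2 windows, the 2 others that do not overlap it hold 0. It is common, being in 17.8% of the 32851 RefSeq windows of the same length. Jun had 0 cores and 1 JUN1 element, which 2.93% of windows hold, and Nr4a1 and Nr4a2 had 1 EGR motif each (4.70% of windows). A CArG box stood 72 bases before the Egr2 start shown, and 1.47% of windows hold one. The complete response element TGACGTCA (1.55% of windows), the AP-1 motif TGANTCA (6.75%) and the NR4A motif AAAGGTCA (1.34%) were searched as well and were in 0 of the members' windows. The letters describe these windows and were not tied to the values below.

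The members spanned a 278-fold range of mean levels per kilobase of exon, or 157-fold with the mean transcript length in its place. Divided by exon length, Jund was highest at 112 ± 7.04 CPM per kilobase (mean and SD over the 6 libraries), followed by Junb at 39.3 ± 4.01, Egr1 at 17.8 ± 0.495 and Egr3 at 10.6 ± 0.628. By exon length, the ranges of these 4 did not overlap with one another or with that of Egr2. With the mean transcript length in its place, the ranges of Egr1 and Egr3 overlapped. Egr2 (5.74 ± 0.436), Nr4a1 (5.62 ± 0.509), Jun (3.91 ± 1.21), Nr4a3 (3.28 ± 0.309) and Fos (3.09 ± 1.38) overlapped each with its neighbour, so their order is not fixed beyond the spread. Nr4a2 was lowest at 0.403 ± 0.0692 CPM per kilobase, below the range of Fos. Among the 13470 genes with enough counts to be tested, 97.4% had a lower level per kilobase than Jund, 81.4% than Egr1, 44.1% than Fos and 18.8% than Nr4a2.

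**Figure D1:**
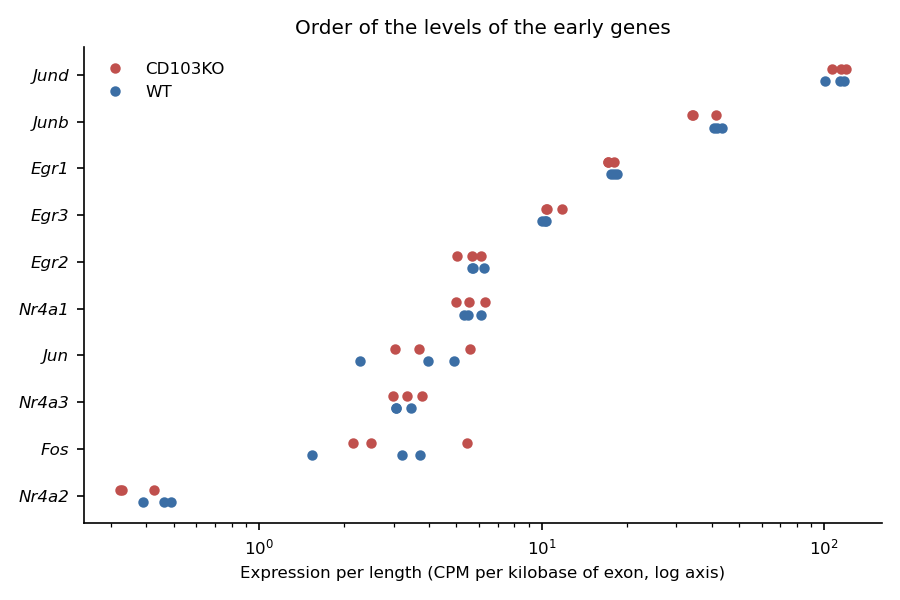
Expression per length of each member, in CPM per kilobase of exon on a log axis, with 1 point per library (CD103KO above WT). Jund lies between 101 and 119 in all 6 libraries, Nr4a2 between 0.322 and 0.490, and the points of Fos and Jun are the most widely spread.

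Divided by exon length, JUN family transcripts made up 76.3 to 77.8% of the members' sum in each library and EGR transcripts 16.2 to 17.5%. NR4A transcripts made up 4.12 to 5.12% and Fos 0.757 to 2.71%. Before that division, the 10 genes together took 0.0483, 0.0467 and 0.0490% of the counts in CD103KO replicates 1, 2 and 3, against 0.0492, 0.0478 and 0.0491% in WT replicates 1, 2 and 3. The groups overlapped in this share.

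Of the 10 members, 0 were called between the genotypes by the quasi-likelihood test of edgeR (Benjamini-Hochberg adjusted p under 0.05, over all 13470 genes), where 0.223% of tested genes were called, 0.141% higher and 0.0817% lower in CD103KO. DESeq2 also called 0 members, against 1.02% of genes, and 1 member (Junb, lower) had an unadjusted p under 0.05 with edgeR, against 8.73% of genes, 4.53% higher and 4.2% lower. Log2 fold changes of CD103KO over WT were positive for 5 members and negative for 5, with a median of 0.012 against -0.0025 over all tested genes. For 1 member, Egr3, the groups were fully separate, as they were for 14.2% of tested genes (6.82% with CD103KO higher and 7.36% with CD103KO lower). In bulk RNA, a lower level cannot be told apart between fewer expressing cells and less RNA per cell.

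**Figure D2:**
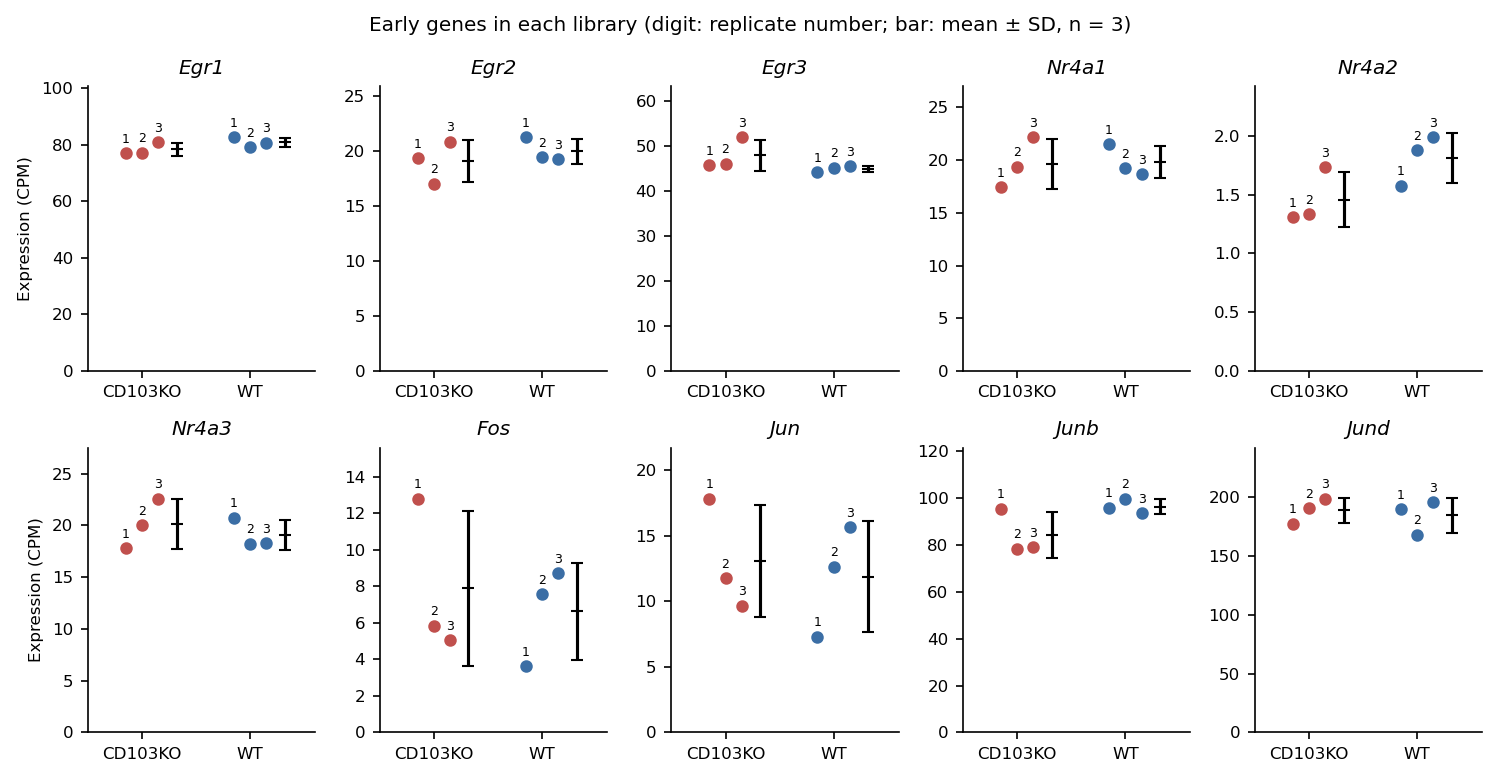
Expression of each member in CPM, from 0, with 1 point per library labelled by its replicate number, CD103KO on the left and WT on the right, and the mean ± SD of each group (n = 3). The groups overlap for 9 of the 10 genes, and Fos and Jun are spread far more widely within each genotype than the other 8.

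The EGR genes encode zinc finger factors that bind GC-rich sites and are induced by receptor signals through ERK. Egr1 (ENSMUSG00000038418.7, chromosome 18, 34859823 to 34864984, plus strand, GENCODE M21 on GRCm38) was at 77.0, 77.2 and 80.9 CPM in CD103KO replicates 1, 2 and 3, against 82.6, 79.2 and 80.7 CPM in WT replicates 1, 2 and 3. It was the steadiest member, with a coefficient of variation over the 6 libraries of 2.79%, where counting error alone gives 1.15 to 1.38%. Its log2 fold change was -0.05 (SE 0.04, adjusted p = 0.776, edgeR), and the 95% interval of the fold ran from 0.912 to 1.03.

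Egr2 (ENSMUSG00000037868.15, chromosome 10, 67535475 to 67542188, plus strand), which with Egr3 restrains T cell activation, was at 19.3, 17.0 and 20.8 CPM in CD103KO replicates 1, 2 and 3, against 21.2, 19.4 and 19.2 CPM in WT replicates 1, 2 and 3. The lowest value was CD103KO replicate 2 and the highest WT replicate 1, and the groups overlapped. The log2 fold change was -0.07 (SE 0.08, adjusted p = 0.853, edgeR), with a 95% interval of 0.838 to 1.09-fold. Egr3 (ENSMUSG00000033730.4, chromosome 14, 70077203 to 70082614, plus strand) was at 45.8, 46.2 and 52.0 CPM in CD103KO, against 44.3, 45.2 and 45.6 CPM in WT, in the same order of replicates. Every CD103KO value lay above every WT value, but CD103KO replicates 1 and 2 did so by little, and CD103KO replicate 3 stood highest. Egr3 differed by 0.09 on the log2 scale (SE 0.06; edgeR adjusted p = 0.695; 95% interval 0.972 to 1.17-fold), and by 0.028 without CD103KO replicate 3. Within a library, Egr1 was 1.56 to 1.68 times Egr3 in CD103KO and 1.75 to 1.87 times in WT, as a ratio of CPM. These ranges did not overlap, where 14.2% of single tested genes had groups that did not overlap. The share of gene pairs with separate ratios was not measured. Several ratios were set up after the values were seen, and none was tested. Egr2 to Egr3 also separated, narrowly, at 0.3685 to 0.4215 in CD103KO and 0.4216 to 0.4792 in WT. The ratios that involved Fos, Jun or Junb, and that of Nr4a1 to Egr1, overlapped.

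The NR4A genes encode orphan nuclear receptors, and Nr4a1 (also called Nur77) is the usual reporter of antigen receptor signal strength. Nr4a1 (ENSMUSG00000023034.7, chromosome 15, 101254269 to 101274795, plus strand) was at 17.4, 19.4 and 22.2 CPM in CD103KO replicates 1, 2 and 3, against 21.5, 19.3 and 18.6 CPM in WT replicates 1, 2 and 3. The CD103KO libraries held both its lowest and its highest value, and the means were 19.7 ± 2.39 and 19.8 ± 1.51 CPM (SD, n = 3 each). Its log2 fold change was -0.01 (SE 0.10, adjusted p = 0.985, edgeR), with a 95% interval of 0.854 to 1.15-fold; with the Xist term the value was 0.08.

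Nr4a3 (ENSMUSG00000028341.9, chromosome 4, 48045153 to 48086447, plus strand) was at 17.8, 20.0 and 22.6 CPM in CD103KO replicates 1, 2 and 3, against 20.7, 18.2 and 18.3 CPM in WT replicates 1, 2 and 3. It was highest and lowest in the libraries where Nr4a1 was highest and lowest. The ratio of Nr4a1 to Nr4a3 in CPM was 0.969 to 0.982 in CD103KO and 1.02 to 1.06 in WT. These ranges did not overlap either, and this ratio too was among those set up after the values were seen and was not tested. Across the members' 45 pairs this one was the most alike, with a root mean square difference of 0.047 between log2 CPM centred on the mean of each gene. Nr4a3 differed by 0.08 on the log2 scale (SE 0.09; edgeR adjusted p = 0.842), with a 95% interval of 0.910 to 1.23-fold.

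Nr4a2 (ENSMUSG00000026826.13, chromosome 2, 57106830 to 57124003, minus strand), best known for dopamine neurons and barely expressed here, was at 1.31, 1.34 and 1.73 CPM in CD103KO replicates 1, 2 and 3, against 1.58, 1.88 and 1.99 CPM in WT replicates 1, 2 and 3. The groups overlapped, since CD103KO replicate 3 lay above WT replicate 1. These values rest on 91 to 180 counts per library, at which counting error gives a coefficient of variation of 7.45 to 10.5%. The log2 fold change of -0.31 (SE 0.18) did not pass (adjusted p = 0.664, edgeR), and its 95% interval ran from 0.609 to 1.06-fold.

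**Figure D3:**
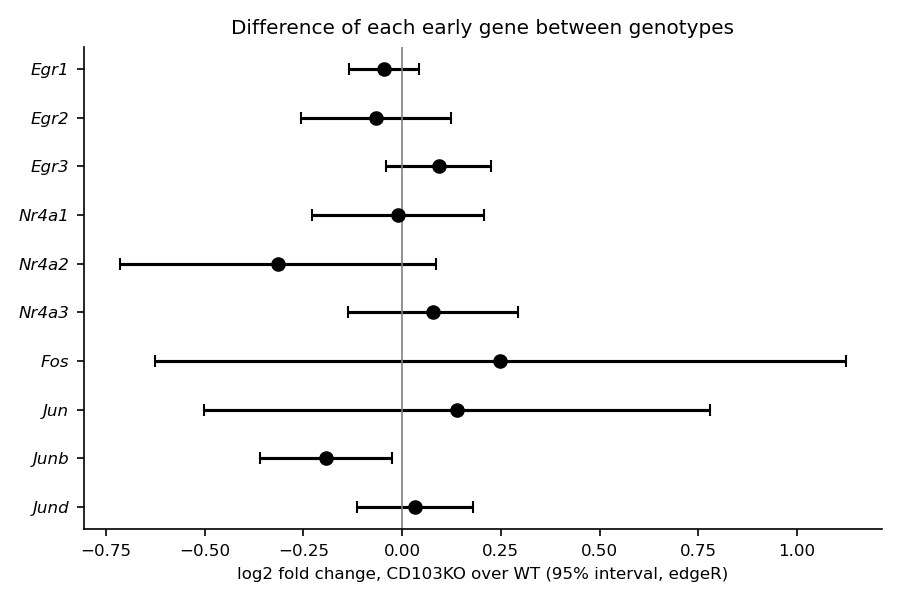
Log2 fold change of CD103KO over WT for each member, with the 95% interval from the edgeR fit. The intervals of 9 members span 0 and that of Junb, -0.36 to -0.03, does not; Fos and Jun have the widest intervals.

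FOS and JUN proteins pair through leucine zippers to form AP-1, which opens cytokine and activation genes in T cells, and JUNB and JUND are JUN relatives with weaker activity in many settings. Jund (ENSMUSG00000071076.6, chromosome 8, 70698949 to 70700616, plus strand, 1 exon), the member least tied to acute signals, was at 177, 191 and 199 CPM in CD103KO replicates 1, 2 and 3, against 190, 168 and 196 CPM in WT replicates 1, 2 and 3. The groups overlapped, and the log2 fold change was 0.03 (SE 0.06, adjusted p = 0.916, edgeR; 95% interval 0.924 to 1.13-fold). With a term for Xist reads it was -0.05 (adjusted p = 0.903, edgeR).

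Junb (ENSMUSG00000052837.6, chromosome 8, 84974484 to 84978718, minus strand) was at 95.5, 78.4 and 79.1 CPM in CD103KO replicates 1, 2 and 3, against 95.9, 99.7 and 93.6 CPM in WT replicates 1, 2 and 3. CD103KO replicates 2 and 3 lay below all WT libraries, and CD103KO replicate 1 lay among them. The log2 fold change was -0.19 (SE 0.07, unadjusted p = 0.0279, adjusted p = 0.501, edgeR), with a 95% interval of 0.779 to 0.982-fold, so Junb did not pass over all genes. Without CD103KO replicate 1, the library that lay among the WT values, it passed, at -0.29 (SE 0.04, adjusted p = 0.0352, edgeR). Over all genes edgeR called 59 in that fit, against 30 with all libraries. Over all the alternatives the adjusted p of Junb ran from 0.0352 to 0.982 and its log2 fold change was negative in each of the 16. The annotated end of Junb shares 173 exonic bases with Prdx2 on the opposite strand. Prdx2, a peroxidase gene, was at 53.5 to 59.3 CPM in the 6 libraries, and no source used here states whether counting used strand, so reads of the overlap cannot be told apart. The antisense genes Gm11175, which overlaps 877 exonic bases of Jund, and Junos, which overlaps 232 of Jun, reached at most 1.76 and 0.136 CPM.

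Jun (ENSMUSG00000052684.4, chromosome 4, 95049034 to 95052222, minus strand, 1 exon) was at 17.8, 11.7 and 9.64 CPM in CD103KO replicates 1, 2 and 3, against 7.28, 12.6 and 15.7 CPM in WT replicates 1, 2 and 3. Fos (ENSMUSG00000021250.13, chromosome 12, 85473890 to 85477273, plus strand) was at 12.8, 5.84 and 5.05 CPM in CD103KO replicates 1, 2 and 3, against 3.63, 7.56 and 8.71 CPM in WT replicates 1, 2 and 3. Both were highest in CD103KO replicate 1 and lowest in WT replicate 1, and the groups overlapped widely. Across the 6 libraries Fos spanned a 3.52-fold range and Jun a 2.44-fold range, while the other 8 members spanned at most 1.52-fold. Their coefficients of variation of 44.7 and 30.9% were far above the 3.26 to 6.06% and 2.77 to 4.28% that counting error gives at their counts. The within-group SD of log2 CPM was 0.70 for Fos and 0.51 for Jun, larger than that of 99.5 and 99.0% of the 10767 tested genes averaging at least 1 CPM.

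Neither Fos nor Jun passed between genotypes. Fos averaged 7.90 ± 4.26 CPM in CD103KO and 6.63 ± 2.66 CPM in WT (SD, n = 3 each), which on the log2 scale is 0.25 (SE 0.39; edgeR adjusted p = 0.883) with a 95% interval from 0.648 to 2.18-fold. Jun averaged 13.1 ± 4.23 CPM in CD103KO and 11.9 ± 4.24 CPM in WT (SD, n = 3 each), which on the log2 scale is 0.14 (SE 0.28; edgeR adjusted p = 0.919) with a 95% interval of 0.706 to 1.72-fold. The direction rested on single libraries. Without CD103KO replicate 1 the log2 fold changes of Fos and Jun were -0.29 and -0.15, without WT replicate 1 they were -0.04 and -0.11, and with a term for Xist reads they were -0.14 and -0.26.

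The order of the 6 libraries was identical for Fos and Jun, from CD103KO replicate 1 through WT replicates 3 and 2 and CD103KO replicates 2 and 3 to WT replicate 1. Of all 13470 tested genes, 47 (0.349%) had this order, Fos and Jun included. The root mean square difference between the centred profiles of Fos and Jun was 0.18 on the log2 scale, and the nearest of the other 8 members to either of them was 0.42 away. Fos was 0.50 to 0.72 times Jun in CD103KO and 0.50 to 0.60 times in WT, as a ratio of CPM. Against Jund, by contrast, Jun moved 2.62-fold and Fos 3.77-fold across the libraries.

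Among 20 heat shock and handling genes, 19 were tested and 0 were called by edgeR or DESeq2. With edgeR 1, higher, had an unadjusted p under 0.05, where 4.53% of all tested genes were higher at that p. The list's median log2 fold change was 0.14, but 0.03 without CD103KO replicate 3 and 0.31 without CD103KO replicate 1. In the latter fit 8 genes of the list, all higher, had an unadjusted p under 0.05 with edgeR and 0 were called. Over all genes, 1953 were at that p in either direction in that fit, against 1176 with all libraries. The 2 genes of the list with the same extremes as Fos and Jun, highest in CD103KO replicate 1 and lowest in WT replicate 1, were Hspa1a and Hspa1b, the inducible HSP70 genes. That pair of extremes was held by 4.45% of all tested genes. Hspa1b was at 40.6, 24.4 and 23.7 CPM in CD103KO replicates 1, 2 and 3, against 5.06, 14.1 and 22.7 CPM in WT replicates 1, 2 and 3, and its log2 fold change of 1.08 (SE 0.44) did not pass (adjusted p = 0.523, edgeR). For Hspa1a it was 1.11 (SE 0.56, adjusted p = 0.631 with edgeR). These genes are near-identical copies whose reads could be split between them. Summed, they were at 58.1, 31.8 and 32.3 CPM in CD103KO replicates 1, 2 and 3, against 6.21, 19.9 and 31.3 CPM in WT replicates 1, 2 and 3, a 9.36-fold range over the libraries. Hspa8, the constitutive HSP70 gene and the most abundant of the list, was ordered otherwise, lowest in CD103KO replicate 1, at 2142 CPM, and highest in CD103KO replicate 3, at 3509 CPM. The heat shock gene Dnaja1 was likewise lowest in CD103KO replicate 1 and highest in CD103KO replicate 3, at a centred log2 CPM of -0.40 and 0.49. The part of handling in the spread of Fos and Jun was not tested.

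**Figure D4:**
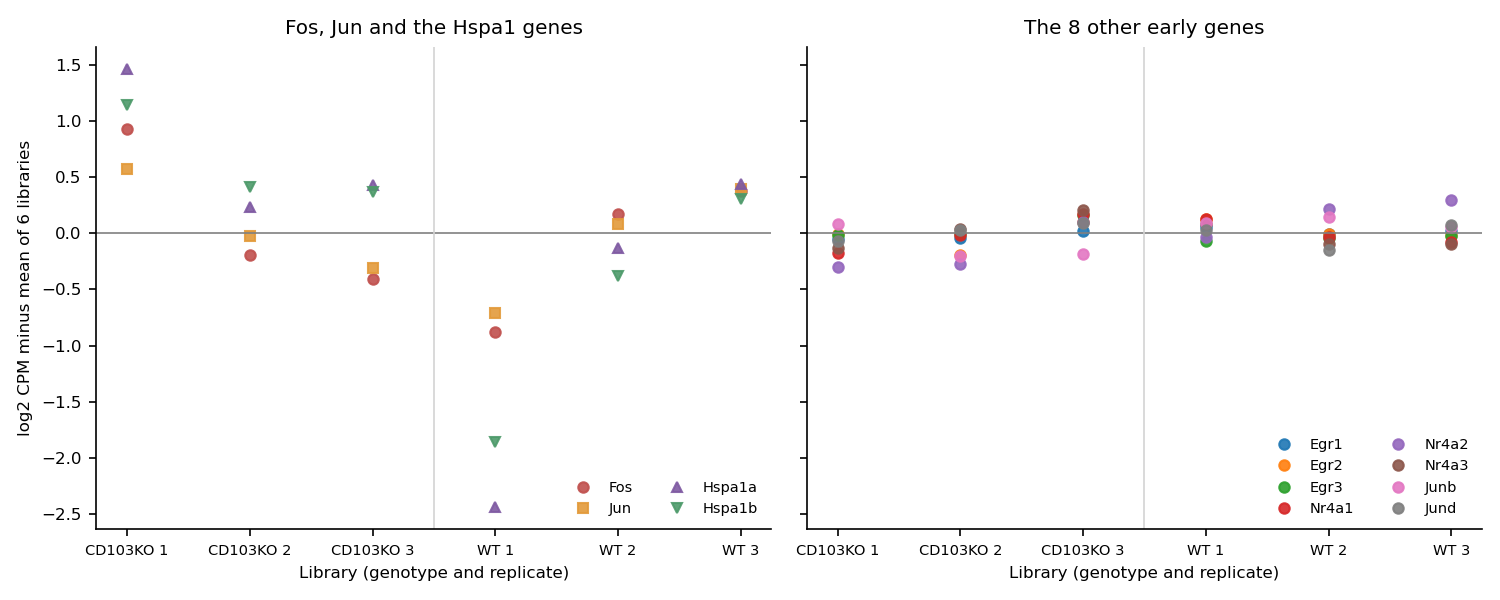
Log2 CPM minus the mean of the 6 libraries for Fos, Jun, Hspa1a and Hspa1b (left) and for the 8 other early genes (right), by library. On the left, CD103KO 1 is highest and WT 1 lowest for all 4 genes, with Fos between -0.88 and 0.93. Among 19 tested heat shock and handling genes, only Hspa1a and Hspa1b had these extremes. They were put in the panel after the values were seen. On the right all points lie between -0.30 and 0.29.

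Of 18 listed AP-1 and ATF relatives of the members, 14 were tested and 0 were called by edgeR or DESeq2, with a median log2 fold change of -0.04. With edgeR 2, both lower, had unadjusted p under 0.05, where 4.2% of all tested genes were lower at that p. The 2 were Batf, an AP-1 factor of effector differentiation, at 26.1 ± 0.605 CPM in CD103KO and 28.9 ± 0.935 CPM in WT (SD, n = 3 each; log2 fold change -0.15, SE 0.06, adjusted p = 0.497, edgeR), and the small MAF gene Maff, at 0.818 ± 0.224 and 1.28 ± 0.116 CPM (log2 fold change -0.64, SE 0.23, adjusted p = 0.480, edgeR). Both had groups that did not overlap, as for 3 of the 14 tested genes of the list and 14.2% of all tested genes. Fosb, the closest relative of Fos in the list, was at 1.76, 0.881 and 1.09 CPM in CD103KO replicates 1, 2 and 3. In WT replicates 1, 2 and 3 it was at 0.962, 1.47 and 1.41 CPM. Its highest value was in CD103KO replicate 1, as for Fos and Jun, but its lowest was in CD103KO replicate 2.

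Most other immediate early genes had negative log2 fold changes in CD103KO that did not pass with edgeR. Of 27 listed genes 26 were tested, 22 had negative log2 fold changes and edgeR called 0 of them, with a median of -0.11 against -0.0025 over all tested genes. At an unadjusted p under 0.05 there were 9, all lower, where 4.2% of all tested genes were lower at that p. The groups of 7 did not overlap, all with CD103KO lower, as for 7.36% of all tested genes. Of the list, 0 genes had the extremes of Fos and Jun. Several, such as Ier2, Socs3 and Cd69, had the reverse, highest in WT replicate 1 and lowest in CD103KO replicate 1. DESeq2 called 4 of the list, all lower, where it called 1.02% of all genes. The 4 were Tnfaip3, Zfp36l2, Nfkbia and Zfp36, which encode inhibitors of NF-kappa B or proteins that destabilise mRNA. Tnfaip3 was at 43.5, 39.5 and 40.4 CPM in CD103KO replicates 1, 2 and 3, against 50.5, 51.0 and 53.6 CPM in WT replicates 1, 2 and 3 (log2 fold change -0.33, SE 0.05, adjusted p = 0.0724, edgeR; 6.013e-05 with DESeq2). Zfp36l2 was at 424, 381 and 350 CPM in CD103KO, against 527, 513 and 460 CPM in WT (log2 fold change -0.38, SE 0.07, adjusted p = 0.145, edgeR; 0.0001738 with DESeq2). With a term for Xist reads the median of the list was -0.06, 17 of its genes were negative and 3 had an unadjusted p under 0.05. Leaving out 1 library at a time, the number lower at that p ran from 4 without WT replicate 1 and 5 without CD103KO replicate 3 to 12 without WT replicate 3. Over all tested genes, those at that p in either direction numbered 889, 764 and 1539 in these fits, against 1176 with all libraries. With edgeR 3 genes of the list were called lower with no filter on low counts, 2 without CD103KO replicate 1 and 1 with the replicate block. Over all genes edgeR called 112, 59 and 24 in these fits.

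**Figure D5:**
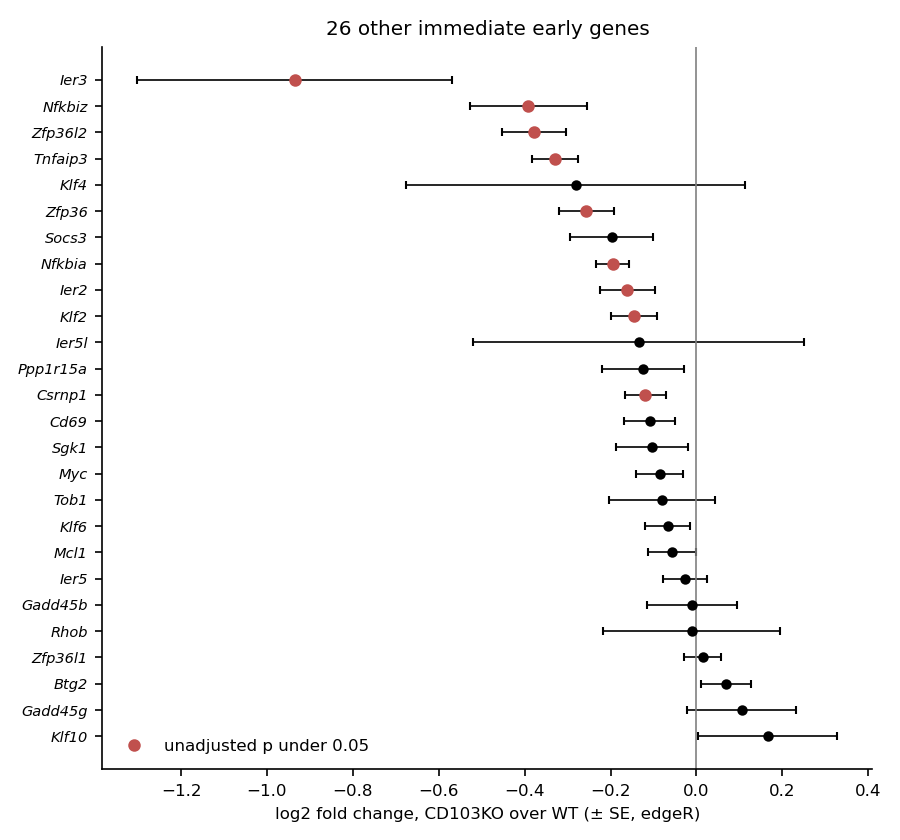
Log2 fold change of CD103KO over WT ± SE (edgeR) for the 26 tested genes of the other immediate early list, sorted by value. The 22 genes with negative values include all 9 with an unadjusted p under 0.05, in colour; 0 passed at an adjusted p of 0.05 with edgeR.

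Upstream of the members, the ERK pathway list with the SRF, ELK, CREB and NFAT factors had 29 tested genes of 31, with a median log2 fold change of -0.0054 and 0 called by edgeR or DESeq2. At an unadjusted p under 0.05 with edgeR, where 4.53% of all tested genes were higher and 4.2% lower, the list had 3 higher genes and 1 lower. The smallest p-values were those of Elk1, a partner of SRF at early gene promoters, at 9.56 ± 0.598 CPM in CD103KO and 11.2 ± 0.335 CPM in WT (log2 fold change -0.23, adjusted p = 0.434, edgeR), and of Sos1, which activates RAS, at 74.9 ± 2.94 and 68.4 ± 1.44 CPM (0.13, adjusted p = 0.437, edgeR; SD, n = 3 each). ERK feedback inhibitors, 13 tested of 15, had a median of -0.06 and 0 calls with edgeR. With edgeR 2, both lower, had unadjusted p under 0.05, where 4.2% of all tested genes were lower at that p. DESeq2, which called 1.02% of all genes, called 1 of this list. That gene, Dusp10, a phosphatase of JNK and p38, was at 40.6, 35.6 and 36.7 CPM in CD103KO replicates 1, 2 and 3, against 44.9, 44.7 and 47.1 CPM in WT replicates 1, 2 and 3 (log2 fold change -0.28, SE 0.06, adjusted p = 0.205, edgeR; 0.009745 with DESeq2). For Dusp2, an ERK phosphatase, the log2 value was -0.22 (SE 0.06; edgeR adjusted p = 0.431).

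Downstream, partners and targets of EGR and NR4A factors, 20 tested of 22, had a median log2 fold change of 0.06, and edgeR called 0. Of the 20, 15 were positive, 5 of them at an unadjusted p under 0.05 (edgeR), where 4.53% of all tested genes were higher. DESeq2 called 2, both higher, against 1.02% of genes. Without CD103KO replicate 1 the median was 0.10 and edgeR called 1, higher, as it did with no filter on low counts. Over all genes edgeR called 59 and 112 in these fits. With the Xist term the median was 0.04, 9 of the 20 were negative, and 2 higher and 3 lower had unadjusted p under 0.05. Id3, an inhibitor of E proteins and an EGR target in thymocytes, was at 36.4, 45.3 and 50.3 CPM in CD103KO replicates 1, 2 and 3, against 34.4, 31.1 and 33.4 CPM in WT replicates 1, 2 and 3 (log2 fold change 0.42, SE 0.11, adjusted p = 0.310, edgeR; 0.009675 with DESeq2). Ikzf2, an Ikaros family factor, was at 12.8 ± 1.08 CPM in CD103KO and 9.95 ± 0.507 CPM in WT (SD, n = 3 each; log2 fold change 0.36, SE 0.08, adjusted p = 0.227, edgeR; 0.02757 with DESeq2). Neither gene's groups overlapped, as for 6 of the 20 tested genes of the list and 14.2% of all tested genes.

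B cells also express EGR and NR4A genes, and all 12 genes of a B cell list had higher fitted levels in CD103KO. Of these, 3 were called by edgeR, where edgeR called 0.223% of all tested genes and DESeq2 1.02%. On the log2 scale, Fcer2a, the low-affinity IgE receptor, was higher by 2.58 (SE 0.27; adjusted p = 0.00589, edgeR), Cd79a, a B cell receptor chain, by 1.74 (SE 0.19; adjusted p = 0.00592) and Ms4a1, which encodes CD20, by 2.28 (SE 0.31; adjusted p = 0.0268). With upper-quartile scaling 1 of the 12 was negative, DESeq2 called 7, and with the Xist term edgeR called 0. Summed over the list, levels were 484 to 508 CPM in CD103KO and 460 to 506 CPM in WT, of which Ighm averaged 452 CPM; 7 of the 12 genes were below 1 CPM and 0 were without counts in all 6 libraries. Erythrocyte and platelet markers summed to 57.4 to 93.0 CPM in CD103KO and 33.0 to 50.1 CPM in WT, with 0 of 5 tested called by edgeR. With edgeR 4 of them, all higher, had unadjusted p under 0.05, where 4.53% of all tested genes were higher at that p. DESeq2 called 3 of these markers, against 1.02% of genes. The smallest p-values of these markers were those of the globin genes Hba-a2 (log2 value 1.02; edgeR adjusted p = 0.123) and Hbb-bt (1.20; 0.145). Myeloid and dendritic (46.4 to 48.8 and 44.9 to 53.7 CPM), NK and innate-like (38.3 to 45.1 and 38.0 to 46.0 CPM), CD4 T cell (9.95 to 12.1 and 8.95 to 11.0 CPM) and stromal markers (127 to 167 and 137 to 151 CPM) overlapped between CD103KO and WT. These 4 lists had 0 calls by edgeR, 0 genes with an unadjusted p under 0.05 and 0 calls by DESeq2, and their smallest adjusted p-values were 0.714 (Fcgr3) and 0.730 (Csf1r), 0.796 (Fcer1g) and 0.800 (Gzma), 0.680 (Il2ra) and 0.723 (Cd40lg), and 0.723 (Col1a1) and 0.942 (Pecam1). Among 13 CD8 T cell identity genes 0 were called by edgeR or DESeq2, and the only ones with an unadjusted p under 0.05 in edgeR were Ccr7, a lymph node homing receptor (log2 value -0.14; edgeR adjusted p = 0.303), and Cd3g, a T cell receptor complex chain (0.10; 0.497). The part of other cells in the members' levels was not tested.

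The genes whose centred profile was nearest to the mean profile of the 10 members, over the 6 libraries and among 7908 genes averaging at least 10 CPM, were Ythdc2, Rhot2, Slc2a1, Evl and Nelfcd. Their root mean square differences from it were 0.019 to 0.023 on the log2 scale. That mean profile ran from -0.12 in WT replicate 1 to 0.10 in WT replicate 3. Fos and Jun had the widest profiles among the 10, at -0.88 and -0.71 in WT replicate 1, where the mean was lowest. In that library Egr3 and Nr4a2 were also below their own means, while Egr1, Egr2, Nr4a1, Nr4a3, Junb and Jund were above theirs. The mean profile thus does not stand for each member, and the likeness describes these libraries without a test.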

How the data were processed

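RNA-seq of naive CD8 T cells was analysed from 3 CD103KO and 3 WT libraries. The kit, per the labels' protocols, was a stranded mRNA one after column purification. The submitters' processing notes list bcl2fastq 2.20, cutadapt 1.18, STAR 2.7.0f and RSEM, with GRCm38 and mm10. No source used here gives the annotation release, strand setting or treatment of multiply aligned reads. Expected counts per gene were deposited by the authors; 6.48% were not whole, and they were rounded here.

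The test was edgeR 4.0.16 (R 4.3.3), with filterByExpr (minimum count 10), TMM factors, the quasi-likelihood F test on group, and p-values adjusted over the 13470 genes that passed (Benjamini-Hochberg, 0.05). Library sizes scaled by TMM underlie the CPM, and centred log2 CPM used a prior count of 2. The SE is the log2 fold change over the square root of F. The test was also run on simulated counts, whose outcome is not given here and is not used as support for any result. Lengths and coordinates come from GENCODE M21 (GRCm38), and levels per kilobase use the union of exons. Alternatives used limma 3.58.1 and DESeq2 1.42.0, and plots matplotlib 3.10.9.

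Members, gene lists and tests were chosen with earlier results of these data known. The text names all members, Itgae, Xist and Ddx3y, up to 3 called genes per list or else the 2 of smallest p, and the 5 genes nearest in profile. Named outside that rule, after seeing their values, were Cd4, Ighm, Fosb, Hspa8, Dnaja1, Ier2, Socs3, Cd69, Nfkbia, Zfp36, the genes overlapping a member, and the genes nearest to Fos and Jun. No pair of libraries in a group looked like a library deposited again (chi-square per degree of freedom 11.9 to 24.4). Coefficients of counting error cover counting error only.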

Additional observations from a re-analysis of the deposited data

How the results depend on the processing

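Over 16 alternative fits per member, 160 in all, 18 turned the sign of a log2 fold change and 1 brought a call, that of Junb without CD103KO replicate 1; the causes were not tested. With the Xist term the turned values were -0.14 for Fos, -0.26 for Jun, -0.053 for Jund and 0.076 for Nr4a1, and with only the libraries without Xist reads -0.14, -0.26, -0.053 and 0.077. Leaving out 1 library at a time gave ranges of -0.29 to 0.49 for Fos, -0.15 to 0.38 for Jun, -0.033 to 0.078 for Jund, -0.11 to 0.070 for Nr4a1, -0.015 to 0.16 for Nr4a3, 0.028 to 0.12 for Egr3 and -0.14 to 0.0053 for Egr2. The signs of Egr1, Egr3, Nr4a2 and Junb were the same in all 16.

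Leaving out libraries in turn gave 0 to 1 called members, 19 to 59 called genes (30 with all libraries) and 2 to 6 calls over the 13 lists (3 with all libraries). Called genes numbered 137 with DESeq2, 112 with no filter on low counts, 19 at an adjusted p of 0.01, 15 with the Xist term and 13 with only the libraries without Xist reads. List calls were 17 with DESeq2, 15 with no filter, and 0 with the Xist term or without the libraries with Xist reads. With the replicate block 24 genes, 0 members and 4 list genes were called. Deviations of same-numbered libraries from their group means had correlations of -0.199 to -0.005. Differently numbered pairs were not compared, so these values cannot exclude a pairing or a shared batch, and the labels state neither. With the mean transcript length in place of the exon union, levels in CPM per kilobase were 78.6 for Junb, 21.2 for Egr1, 19.0 for Egr3, 12.6 for Nr4a1, 12.5 for Egr2, 6.65 for Fos, 6.05 for Nr4a3 and 0.712 for Nr4a2, so that Nr4a1 stood above Egr2, and Fos and Nr4a3 above Jun.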

Other observations

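The 10 genes nearest in centred profile to the mean of Fos and Jun, found after the values had been seen, were Cdk5rap1, Rnf213, Mdn1, Smg1, Slc1a5, Mycbp2, Gpcpd1, Herc3, Macf1 and Dync1h1, at root mean square differences of 0.21 to 0.31 on the log2 scale over the 6 libraries. Several have very long transcripts, such as Macf1, a cytoskeletal linker, with 31402 exonic bases, Smg1, a kinase of mRNA decay, with 23984, and Mdn1, a ribosome assembly factor, with 21836. The nearest, Cdk5rap1, had 3434 exonic bases, Slc1a5 4173, Gpcpd1 7289 and Herc3 9127. Fos and Jun had 2352 and 3189. Of the 7908 candidate genes averaging at least 10 CPM, 865 had at least 10000 exonic bases. Over all 865 genes with at least 10000 exonic bases and a mean of at least 10 CPM, the median centred log2 CPM was 0.030, 0.017 and 0.003 in CD103KO replicates 1, 2 and 3, against -0.028, 0.004 and -0.025 in WT replicates 1, 2 and 3. It was highest in CD103KO replicate 1 and lowest in WT replicate 1, with a value nearly as low in WT replicate 3. Over the 943 genes under 2000 exonic bases the median was -0.022, -0.004 and -0.012 in CD103KO, against 0.011, -0.017 and 0.047 in WT. Any part of transcript length in the spread of Fos and Jun was not tested. Rnf213, an interferon-inducible ubiquitin ligase, was at a centred log2 CPM of 0.37 in CD103KO replicate 1 and -0.54 in WT replicate 1.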
